A study of Sus scrofa with 24 samples.

Results

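From day 2 to day 4 of adipogenic culture, subcutaneous preadipocytes of the pig lowered some of their smooth-muscle-like contractile genes, a part of their fibrous matrix and several enzymes of cholesterol synthesis, and raised a matrix collagenase, growth factors of the EGF family, prostaglandin enzymes and glutathione- and thioredoxin-linked antioxidant genes. The comparison was made between the 3 libraries named BF-2d and the 3 named BF-4d, which are 6 of the 24 RNA libraries of the study. The libraries were chosen by their labels alone (BF for subcutaneous back fat, and the day of collection), not by any measured value. The study asked which genes accompany the differentiation of subcutaneous and intramuscular preadipocytes.

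Both groups held primary cells isolated by collagenase from the back subcutaneous fat of 6-day-old Yorkshire piglets and grown to near confluence. Both had been induced for the first 2 days with IBMX, which blocks phosphodiesterases and so raises cAMP, with dexamethasone, a synthetic glucocorticoid, and with insulin. BF-2d cells were collected at the end of that period. BF-4d cells had then spent a further 2 days in growth medium to which only insulin was added, so the removal of IBMX and dexamethasone and the passing of time cannot be told apart in this comparison. The same days of intramuscular cells from the longissimus dorsi (IMF-2d and IMF-4d, 3 libraries each) went through the same media and served as the comparison. Each group had 3 replicates. The study used 3 piglets, but nothing in the labels ties a replicate to an animal or a culture. The p-values therefore measure only the spread between libraries, pooled over all groups of the study, and that spread may be technical.

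A preadipocyte is a fibroblast-like cell that secretes collagen, carries actin stress fibres and spreads on its dish. On induction, C/EBP-beta and C/EBP-delta act early and are followed by PPAR-gamma and C/EBP-alpha, which switch on the genes of lipid storage while the cell rounds up and its stress fibres and fibrillar matrix are taken down. Cholesterol synthesis, driven by the transcription factor SREBP-2, is high in dividing and growing cells and low when sterols suffice. Genes of the EGF family ligands and of cyclooxygenase-2 are classic early targets of cAMP and inflammatory signals in fibroblasts. Collagenase genes are induced there by inflammatory signals. The antioxidant genes described here are targets of the transcription factor NRF2.

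The sequences that stand before 4 of the genes described below are shown because each holds a short motif known from its class: the CArG box bound by serum response factor in contractile genes, and the core TGACG of the cAMP response element. Each is the 250 bases that end at the base before the RefSeq gene start on Sscrofa11.1, read 5′ to 3′ on the strand of the gene, with the motif (either strand) in capitals. The 4 genes were chosen after their values had been seen. The window of MYL9 (a myosin light chain) is chr17:39787915-39788164 on the plus strand. Those of the EGF-family ligands EREG (epiregulin) and AREG (amphiregulin) are chr8:70351066-70351315 and chr8:70417685-70417934, both on the plus strand. That of PTGS2 (cyclooxygenase-2) is chr9:127858867-127859116 on the minus strand. The TGACG core of AREG is part of a palindrome, so that it matches on both strands.
MYL9: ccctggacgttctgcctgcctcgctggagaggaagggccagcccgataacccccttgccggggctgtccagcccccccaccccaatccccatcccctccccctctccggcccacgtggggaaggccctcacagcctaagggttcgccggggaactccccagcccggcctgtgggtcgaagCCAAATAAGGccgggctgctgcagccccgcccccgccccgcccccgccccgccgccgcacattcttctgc
EREG: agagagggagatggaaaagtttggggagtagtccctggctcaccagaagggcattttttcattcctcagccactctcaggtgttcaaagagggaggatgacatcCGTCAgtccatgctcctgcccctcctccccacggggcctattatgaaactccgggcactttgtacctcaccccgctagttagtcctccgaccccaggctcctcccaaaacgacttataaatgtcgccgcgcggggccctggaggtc
AREG: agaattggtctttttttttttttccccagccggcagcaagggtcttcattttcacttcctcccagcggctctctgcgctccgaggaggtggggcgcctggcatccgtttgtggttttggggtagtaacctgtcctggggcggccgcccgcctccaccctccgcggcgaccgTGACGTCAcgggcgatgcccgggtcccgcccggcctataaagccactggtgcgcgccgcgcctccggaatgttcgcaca
PTGS2: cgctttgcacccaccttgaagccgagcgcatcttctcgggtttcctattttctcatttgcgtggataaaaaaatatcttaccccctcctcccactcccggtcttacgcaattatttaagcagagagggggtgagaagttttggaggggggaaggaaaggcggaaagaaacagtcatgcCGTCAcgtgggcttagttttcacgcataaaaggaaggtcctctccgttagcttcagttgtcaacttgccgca

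The motifs are a description of these letters and not evidence of binding. A CArG box was found in 1.31% of 19531 such windows genome-wide and TGACG in 19.6%. Among the 190 named genes with a window the shares were 2.11% and 21.1%. AP-1 sites (TGANTCA) stood in 7.89% of those windows and in 5.25% of all, sites of NF-kB in 7.37% and 5.9%, and the SREBP site TCACNCCAC, added after the values had been seen, in 2.63% and 0.804%.

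The values are FPKM, fragments scaled to transcript length and to the mapped fragments of the library, as the authors computed them. The number of reads behind a single value is unknown, since no counts come with it. A library summed to 339766 to 385768 FPKM and held 9985 to 10555 genes of at least 1 FPKM. Differences are given as log2 of (FPKM + 1), BF-4d minus BF-2d. Each has its standard error (SE) and, from limma, an adjusted p. They understate the change of genes with low values. A gene was called when its adjusted p was under 0.01 and its absolute log2 change at least 1. Replicates of these groups were unequal. Across genes, which are not independent replicates, BF-2d libraries correlated at 0.962 to 0.976 and BF-4d libraries at 0.965 to 0.991. The median SD of log2(FPKM + 1) over genes was 0.218 in BF-2d and 0.158 in BF-4d, against 0.0888 to 0.139 in the other 6 groups.

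Over all genes BF-4d replicate 3 stood apart from its group, with correlations of 0.965 and 0.970 to the others, which correlated at 0.991. BF-2d replicate 3 did not by this measure (0.971 and 0.962, against 0.976 between the others), but it differed in the genes of the comparison. Over the 19 tested contractile genes the mean log2(FPKM + 1) was 5.32 in BF-2d replicate 3 against 3.94 and 4.01 in the other BF-2d libraries, and it had been 6.14 to 6.20 in the 3 libraries of day 0. BF-2d replicate 3 was the lowest library of its group in 211 of the 324 genes called higher and the highest in 173 of the 217 called lower. BF-4d replicate 3 was the highest of its group in 196 of the 324 and the lowest in 160 of the 217. Both libraries therefore lay at the far ends of the comparison more often than the others in these genes, which were themselves chosen for the difference, and the larger shifts of values when one of them was left out are given beside the result or in the paragraphs on the fits without it.

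Of 16135 genes tested, 541 were called (3.35%), 324 higher on day 4 (2.01%) and 217 lower (1.34%), and 458 of them had a gene symbol. Libraries of the days did not overlap for 314 of the higher and 212 of the lower genes. Over all tested genes, every BF-4d library lay above every BF-2d library for 15.1% and below for 13.3%. Without BF-2d replicate 3, 405 genes were called (2.51%), of which 338 were among the 541, and without BF-4d replicate 3 there were 416. At an unadjusted p under 0.05 there were 5885 genes (36.5%), the share against which such counts in the lists are to be read. The calls rested on the spread shared by all 24 libraries. Over the called genes the median SD was 0.497 in BF-2d and 0.413 in BF-4d, against 0.0890 to 0.190 in the other groups. The shared spread thus tends to lie below that of BF-2d and BF-4d, so SEs and adjusted p of called genes come out too small for these groups. With only the 12 BF libraries fitted 172 genes were called (1.07%), 170 of them among the 541. With only the 6 libraries compared limma called 0 genes, with 2981 at an unadjusted p under 0.05 and a smallest adjusted p of 0.0665. Leaving out BF-2d replicate 1 raised the count to 851.

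The 15 largest rises and falls were chosen among genes whose libraries did not overlap, and in most of them the third replicates lay at the far ends.

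**Figure D1:**
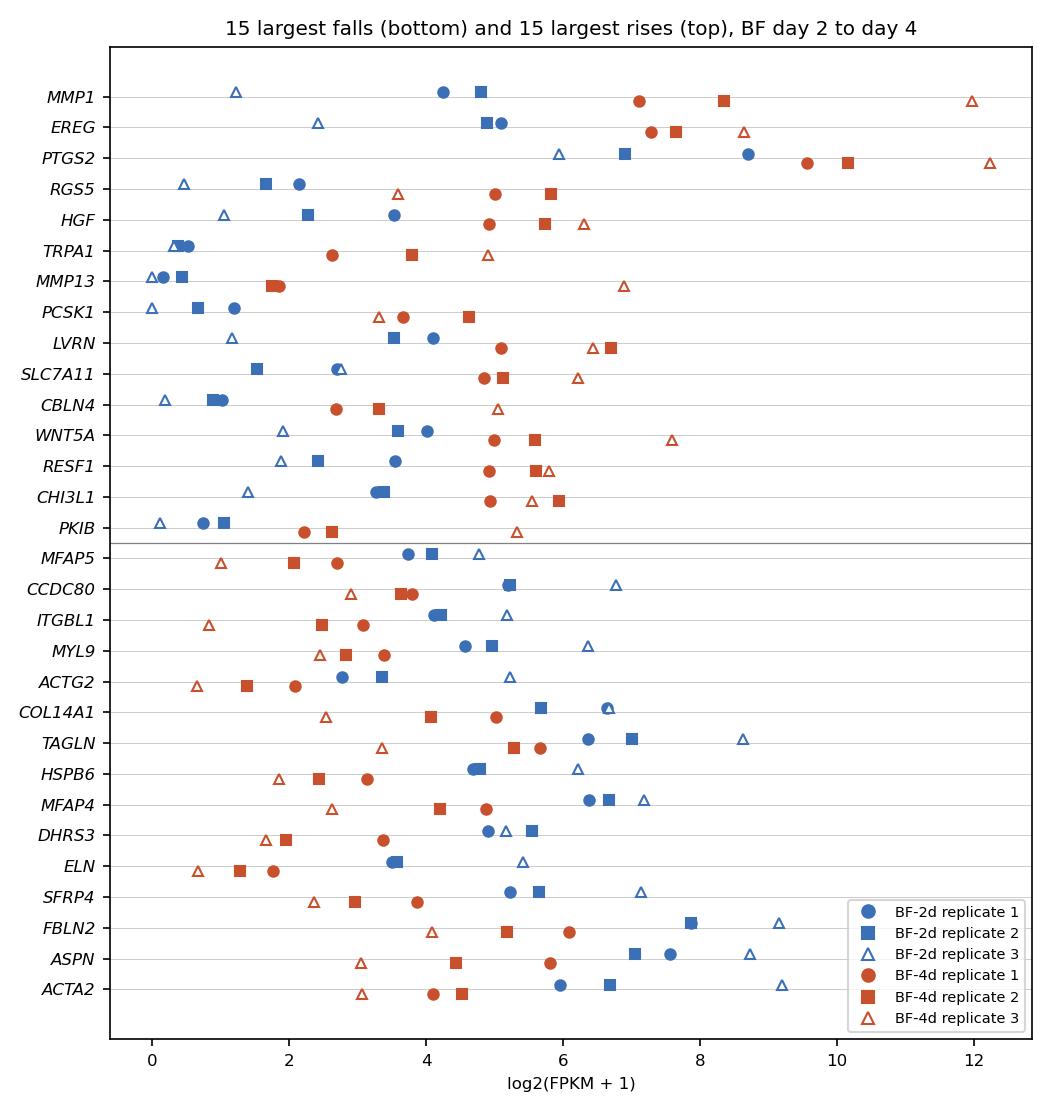
Values of log2(FPKM + 1) in each of the 6 libraries (blue, BF-2d; red, BF-4d; circle, square and open triangle, replicates 1, 2 and 3) for the 15 largest rises (above the line) and 15 largest falls (below it) among called genes with non-overlapping libraries. The open triangle of BF-2d lies farthest from the red points in 14 of the 15 rises and 14 of the 15 falls, and that of BF-4d farthest from the blue points in 11 and 15.

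MMP1 (ENSSSCG00000014985, chr9:33411738-33420205 on the minus strand of Sscrofa11.1), the interstitial collagenase that cuts fibrillar collagen, had the largest rise. It read 17.9, 26.9 and 1.34 FPKM in the 3 BF-2d libraries and 137, 327 and 3998 FPKM in the 3 BF-4d libraries, a change of 5.72 (SE 0.86, adjusted p = 0.000163). Every day 4 library was above every day 2 library, but one of the former was more than 10 times the next. The call was lost with the 12 BF libraries (adjusted p = 0.0118) and held in all 6 fits that left out one library of the comparison.

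Of 16 tested metalloproteinases, inhibitors and plasmin activators, 4 rose and 0 fell, with a median of 0.82 against 0.02 over all tested genes. MMP13, another collagenase, read 0.121, 0.353 and 0 FPKM and then 2.62, 2.35 and 118 (3.30, SE 0.79, adjusted p = 0.00579). Its call held in 3 of the 6 fits without one library. It was lost without BF-2d replicate 3, where the change was nearly as large (3.20, adjusted p = 0.0236). ADAMTS4, which cleaves the proteoglycan aggrecan, went from 11.1 to 27.0 FPKM on day 2 to 44.9 to 146 on day 4 (1.84, SE 0.36, adjusted p = 0.00129). PLAUR, the urokinase receptor, rose by 1.74 (SE 0.38, adjusted p = 0.00305). Both of these also lost their call without BF-2d replicate 3, so MMP1 was the one of the 4 that kept it, beside TIMP3, called in that fit alone. The gelatinase MMP2 stayed among the most abundant transcripts, at 1365 to 2623 FPKM on day 2 and 1818 to 2333 on day 4, with a difference of 0.01 (SE 0.18) that ranged from -0.30 without BF-2d replicate 3 to 0.11 without BF-4d replicate 3. The 4 calls were all lost in the fit on the 12 BF libraries.

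Growth factors of the EGF family rose while their receptors did not pass the test. EREG (chr8:70351316-70372530, plus strand) read 33.3, 28.6 and 4.35 FPKM on day 2 and 156, 201 and 400 FPKM on day 4 (3.73, SE 0.48, adjusted p = 3.86e-05). The days did not overlap, and without BF-2d replicate 3 the change was 2.87. AREG read 128, 147 and 18.2 FPKM and then 325, 370 and 496 (2.45, SE 0.48, adjusted p = 0.00128), and it changed by 1.505 without BF-2d replicate 3. The other ligands called were HBEGF (heparin-binding EGF), by 1.45, and NRG1 (neuregulin), by 1.26, both under 9 FPKM. Of the 10 tested members 4 rose and 0 fell, and the median was 0.65. The receptor EGFR stood at 14.2 to 27.5 FPKM on day 2 and 27.9 to 33.8 on day 4, with libraries that did not overlap (0.58, SE 0.15, adjusted p = 0.0106). EREG alone kept its call with the 12 BF libraries, and EREG and AREG without BF-2d replicate 3.

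Enzymes that make prostaglandins rose. PTGS2, PTGS1 and PLA2G4A were called of 13 tested members of the pathway, with 0 lower and a median of 0.35 (0.12 without BF-2d replicate 3). PTGS2 (chr9:127850164-127858866, minus strand) read 417, 119 and 60.6 FPKM on day 2 and 753, 1146 and 4825 on day 4 (3.47, SE 0.65, adjusted p = 0.000942). PTGS1, the constitutive cyclooxygenase, went from 19.5, 24.9 and 8.90 to 32.5, 80.3 and 86.4 FPKM (1.83, SE 0.29, adjusted p = 0.000213). PLA2G4A, the phospholipase that frees arachidonic acid, rose by 1.74 (SE 0.37), and by 1.05 without BF-2d replicate 3. No library of day 4 reached down to day 2 for these enzymes. PTGES, the terminal synthase of prostaglandin E2, was not called (0.61, SE 0.35), with libraries that overlapped and a difference of 0.20 or 0.09 without the third replicate of day 2 or day 4. All 3 calls held without BF-2d replicate 3 and were lost with the 12 BF libraries.

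Other genes among the 15 largest rises had several roles. HGF, hepatocyte growth factor, read 10.6, 3.82 and 1.08 FPKM and then 29.4, 52.6 and 78.5 (3.37, SE 0.40, adjusted p = 1.93e-05), and WNT5A, a ligand of the non-canonical Wnt pathway, 15.2, 11.1 and 2.77 and then 30.7, 47.4 and 192 (2.88, SE 0.48, adjusted p = 0.000342). In both the lowest day 4 library was above the highest of day 2. PCSK1, a protease that trims prohormones, was listed at 0 in BF-2d replicate 3 and stood at 1.30 and 0.592 FPKM in the others, against 11.7, 23.8 and 8.99 FPKM on day 4 (3.25, SE 0.27, adjusted p = 2.48e-07). TRPA1, a calcium channel that senses irritants, went from 0.242 to 0.436 FPKM to 5.17 to 28.9 (3.37, SE 0.32, adjusted p = 1.45e-06). RGS5, a brake on G-protein signalling that also marks pericytes, went from 0.380 to 3.44 FPKM to 11.1 to 55.6 (3.38, SE 0.47, adjusted p = 6.93e-05). CHI3L1, CBLN4, RESF1, LVRN and PKIB completed the 15 largest rises, at 2.76 to 3.15. Of the 15, 9 kept their call with the 12 BF libraries (EREG, RGS5, HGF, TRPA1, PCSK1, SLC7A11, CBLN4, RESF1 and CHI3L1), and 14 held it in all 6 fits without one library, the exception being MMP13.

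In the TGF-beta and BMP pathway 4 of 25 tested members rose and 0 fell. They were the ligands TGFB2 (2.23, SE 0.43), GDF15 (2.14, SE 0.47) and TGFB1 (1.15, SE 0.24) and LTBP1, which tethers latent TGF-beta in the matrix. GDF15 had overlapping libraries, with 15.8 FPKM in one of day 2 and 15.3 in one of day 4, and was called in 3 of the 6 fits without one library (adjusted p = 0.0211 without BF-2d replicate 3). LTBP1 was the steadiest of them, at 139, 92.6 and 137 FPKM on day 2 and 303, 251 and 380 on day 4 (1.34, SE 0.16, adjusted p = 1.68e-05), and the only one called with the 12 BF libraries. INHBA, an activin chain, was just outside the threshold (2.22, SE 0.58, adjusted p = 0.01) and reached 103 FPKM in BF-4d replicate 3 against 5.35 and 12.3 in the other day 4 libraries. Without that library its difference was 1.05.

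Of 18 tested chemokines and cytokines 2 rose and 0 fell. They were IL33, an alarmin (1.58, SE 0.28, adjusted p = 0.000607), and IL18, which was low on day 2 at 1.49 to 2.12 FPKM (1.79, SE 0.25, adjusted p = 6.24e-05). CXCL8, the neutrophil chemokine, had 438, 588 and 77.3 FPKM on day 2 and 543, 527 and 8229 on day 4 (2.29, SE 0.77, adjusted p = 0.0377). Its libraries overlapped, since only BF-4d replicate 3 stood above day 2, and CSF2, IL1A and CXCL2 were likewise highest in that library. Its change was 0.97 without BF-4d replicate 3 and 1.39 without BF-2d replicate 3. Of the IL6 family, IL6ST, the shared receptor chain gp130, went from 106, 46.5 and 57.2 FPKM to 248, 239 and 202 (1.79, SE 0.26, adjusted p = 0.000106), while IL11RA, the receptor of IL11, fell by 1.04 on the log2 scale. The ligands IL6 (1.93, adjusted p = 0.0148), IL11 (2.34, adjusted p = 0.0323) and LIF (2.04, adjusted p = 0.0228) were not called. Without BF-2d replicate 3 they were at 1.13, 0.99 and 1.08.

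A group of antioxidant genes rose. Of 17 tested genes of the NRF2 list, 5 rose and 0 fell, the median was 0.70, and the day 4 libraries of 10 genes lay wholly above those of day 2. SLC7A11 (chr8:88608083-88690589, plus strand), the cystine importer that feeds glutathione synthesis, read 5.48, 1.91 and 5.75 FPKM and then 27.7, 33.8 and 73.6 (3.06, SE 0.31, adjusted p = 2.82e-06). NQO1, a quinone reductase, read 29.4, 32.0 and 11.3 FPKM and then 99.8, 132 and 104 (2.28, SE 0.25, adjusted p = 7.33e-06). TXNRD1, thioredoxin reductase, read 59.0, 52.6 and 53.2 FPKM and then 139, 136 and 167 (1.40, SE 0.11, adjusted p = 2.06e-07). In each the days did not overlap, and TXNRD1 had the least spread. GCLC, the rate-limiting enzyme of glutathione synthesis, rose by 1.55 and SRXN1, sulfiredoxin, by 1.13. The gene of NRF2 itself, NFE2L2, had a small difference below the fold limit (0.70, SE 0.15, adjusted p = 0.00225). HMOX1, the haem oxygenase, was at -0.32 (SE 0.33), and at -0.02 without BF-4d replicate 3. Catalase, CAT, was at -0.56 (SE 0.39, adjusted p = 0.33), a value with no stable sign, since it was -1.08 without BF-2d replicate 3 and 0.10 without BF-4d replicate 3. All 5 calls held without BF-2d replicate 3, and 4 held with the 12 BF libraries (all but SRXN1).

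**Figure D2:**
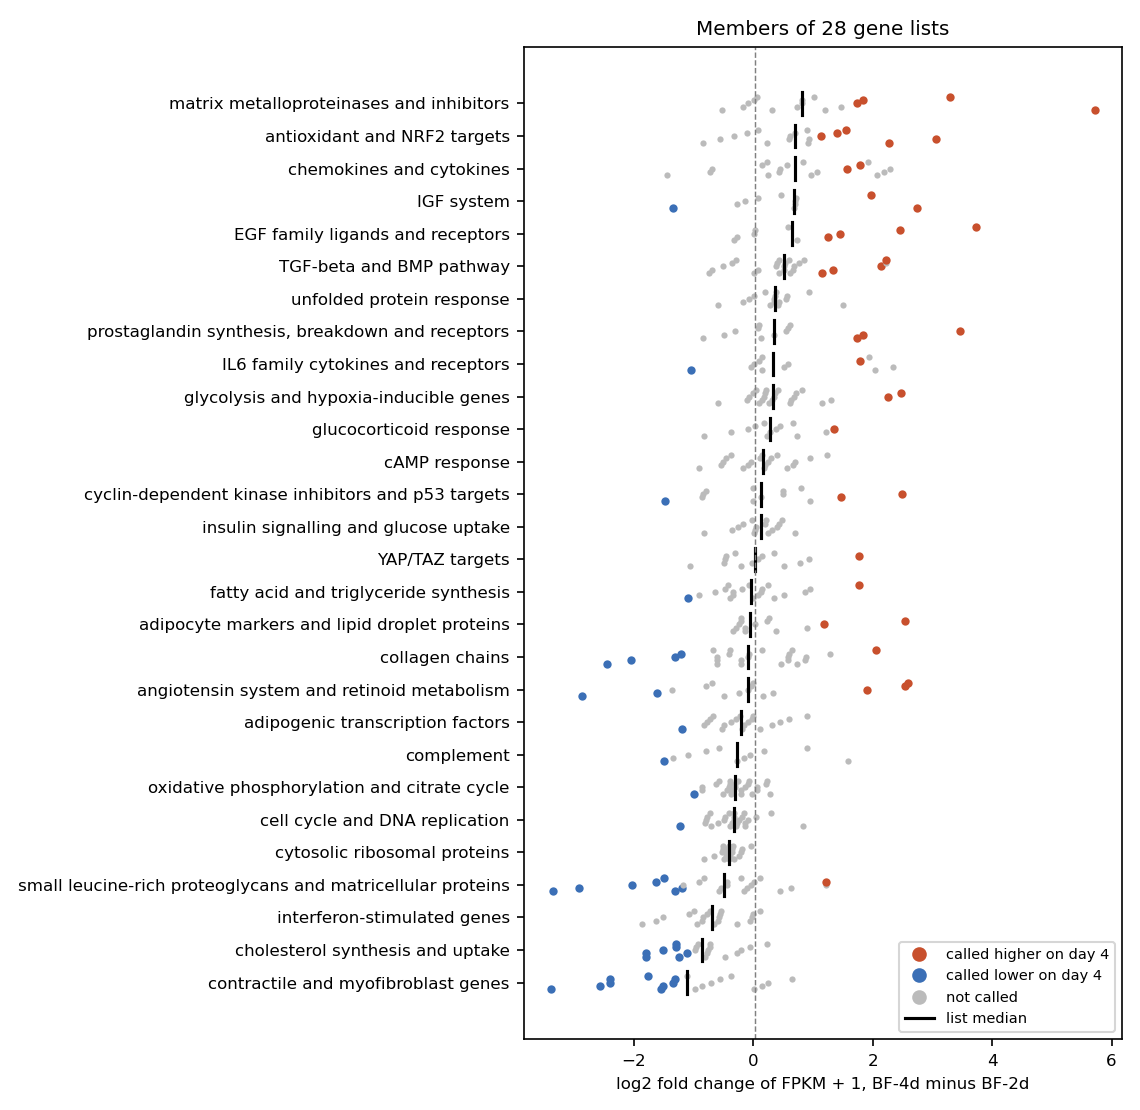
The log2 change (BF-4d minus BF-2d) of each tested member of 28 gene lists (red, called higher; blue, called lower; grey, not called; black bar, list median; dashed line, median of all tested genes at 0.02). Lists run from the contractile genes at the bottom (median -1.11) to the metalloproteinases at the top (0.82), and the called members of the cholesterol and contractile lists all lie on the lower side.

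Contractile and myofibroblast genes fell. Of 19 tested, 9 fell and 0 rose, with a median of -1.11. ACTA2 (chr14:100868145-100886732, minus strand), smooth muscle actin, read 61.2, 102 and 588 FPKM on day 2 and 16.2, 22.1 and 7.38 on day 4 (-3.38, SE 0.55, adjusted p = 0.000278). TAGLN (transgelin), an actin-bundling protein, read 81.1, 127 and 396 FPKM and then 49.6, 37.9 and 9.29 (-2.56, SE 0.47, adjusted p = 0.000709). The days did not overlap, and the day 2 libraries differed from each other by more than 4 times. MYL9 read 22.7, 30.2 and 81.3 FPKM and then 9.50, 6.09 and 4.48 (-2.41, SE 0.30, adjusted p = 2.49e-05). ACTG2, CNN1 (calponin), LMOD1, TPM1, TPM2 and TGFB1I1 fell too, by 1.30 to 2.41 on the log2 scale. The values of ACTA2 and ACTG2 are less certain than the rest, because these actins are near copies of each other and reads can be shared between them.

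The size of that fall depended on BF-2d replicate 3. With all libraries the list had the lowest median, but without this one its median was -0.49, above those of the cholesterol (-0.77), interferon-stimulated (-0.64) and ribosomal (-0.51) lists. In that fit 6 of the 9 stayed called (ACTA2, TAGLN, ACTG2, MYL9, CNN1 and LMOD1), and ACTA2 changed by -2.42 (adjusted p = 0.000327). With the 12 BF libraries only MYL9 and TGFB1I1 kept their call. VCL (vinculin, 0.25) and SMTN (smoothelin, 0.65) were not called, and their fitted differences were above 0, also without BF-2d replicate 3 (0.58 and 0.50) or BF-4d replicate 3 (0.24 and 0.32). In bulk RNA, fewer cells with a programme and less RNA per cell cannot be told apart, here or in any result of these data.

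Of the fibrous matrix, 4 of 25 tested collagen chains and collagen-processing genes fell and 1 rose. COL1A1, the main chain of type I collagen, read 2111, 1806 and 5072 FPKM on day 2 and 969, 526 and 534 on day 4 (-2.05, SE 0.27, adjusted p = 4.08e-05). COL1A2 fell from 2559, 2083 and 4121 FPKM to 1689, 1031 and 999 (-1.22, SE 0.19), and COL5A1, of type V collagen, and the fibril-associated COL14A1 fell by 1.32 and 2.45 on the log2 scale. Libraries did not overlap for any of these. COL3A1, at 1158 to 1710 FPKM on day 2 and 1077 to 1878 on day 4, was not called (-0.08, SE 0.16), and COL18A1, of the basement membrane, rose from 25.8, 25.2 and 10.2 FPKM to 66.0, 108 and 76.6 (2.06, SE 0.27, adjusted p = 4.41e-05). COL1A1 and COL18A1 kept their call with the 12 BF libraries. Without BF-2d replicate 3 COL1A2 (-0.94) and COL5A1 (-0.99) no longer reached the fold limit, and 3 of the 5 calls held.

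Of 24 proteoglycans and matricellular proteins 7 fell and 1 rose, with a median of -0.49 (-0.11 without BF-2d replicate 3). ASPN (asporin, chr3:42165553-42192902, minus strand), a leucine-rich proteoglycan that binds collagen and TGF-beta, read 188, 132 and 422 FPKM and then 55.3, 20.6 and 7.29 (-3.35, SE 0.47, adjusted p = 7.5e-05). ELN, elastin, read 10.3, 10.9 and 41.6 FPKM and then 2.42, 1.45 and 0.591 (-2.92, SE 0.36, adjusted p = 2.28e-05). The other members called lower were ECM2, OGN, OMD, SPARC and BGN. The exception was TNC (tenascin-C), a matrix protein of wounds and growing tissue, which rose from 398, 290 and 253 FPKM to 717, 745 and 695 with hardly any spread on day 4 (1.22, SE 0.13, adjusted p = 6.68e-06).

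The other large falls were in genes of several roles. FBLN2 (fibulin-2) read 232, 233 and 569 FPKM and then 66.9, 35.3 and 15.9 (-3.18, SE 0.34, adjusted p = 5.37e-06), and SFRP4, which binds Wnt ligands, 36.5, 49.2 and 140 and then 13.5, 6.77 and 4.14 (-2.95, SE 0.35, adjusted p = 1.68e-05). MFAP4, HSPB6, ITGBL1, CCDC80 and MFAP5 were at -2.83 to -2.27, and DHRS3, described with the retinoid genes, was also among the 15 largest falls. Of these 15, 10 kept their call with the 12 BF libraries (all but ACTA2, TAGLN, COL14A1, ACTG2 and ITGBL1), and all 15 held it in the 6 fits without one library.

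Enzymes of cholesterol synthesis fell. Of 20 tested genes, 7 fell and 0 rose, 19 had a difference below 0, and the median was -0.87 (-0.77 without BF-2d replicate 3). DHCR7 (chr2:2377352-2391846, plus strand), which makes cholesterol from 7-dehydrocholesterol, read 19.8, 24.3 and 20.7 FPKM on day 2 and 5.22, 6.07 and 5.17 on day 4 (-1.80, SE 0.13, adjusted p = 1.01e-07). IDI1, which isomerises isopentenyl diphosphate, read 34.0, 43.1 and 60.3 FPKM and then 11.5, 11.4 and 13.5 (-1.80, SE 0.16, adjusted p = 8.12e-07). In both genes the day 4 libraries were nearly equal and the days far apart. FDPS, MVD, CYP51A1 and SQLE (squalene epoxidase) were among the other calls, at -1.30, -1.29, -1.24 and -1.10. Without BF-2d replicate 3, and likewise with the 12 BF libraries, 6 of the 7 held and SQLE was lost.

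Several enzymes of that pathway fell short of the fold limit only. LSS (lanosterol synthase) differed by -0.96 (SE 0.14, adjusted p = 0.000117), MSMO1 by -0.98 and HMGCS1 by -0.93. SREBF2, the gene of SREBP-2, was at -0.78 (SE 0.16, adjusted p = 0.00195). SOAT1, which esterifies cholesterol, was at 0.24 (SE 0.36), the only member above 0, and at -0.44 without BF-2d replicate 3.

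Lipid storage genes gave a mixed picture. LPL, lipoprotein lipase, which frees fatty acids for uptake, read 82.1, 77.7 and 6.71 FPKM on day 2 and 176, 313 and 178 on day 4 (2.54, SE 0.58, adjusted p = 0.00431). PLIN2, a coat protein of lipid droplets in many cell types, read 88.9, 86.7 and 43.2 FPKM and then 142, 138 and 206 (1.19, SE 0.23, adjusted p = 0.00127). Both sets of libraries were apart. They were the 2 members called of 14 tested adipocyte and lipid droplet genes, with a median of -0.05. That median was 0.02 without BF-2d replicate 3 and -0.16 without BF-4d replicate 3. LPL kept its call without BF-2d replicate 3 (1.41) and PLIN2 lost it, and neither was called with the 12 BF libraries. ADIPOQ (adiponectin) and PLIN1 (perilipin-1), markers of mature fat cells, had at most 0.230 and 0.0773 FPKM in any of the 6 libraries and were below the filter, LEP and RETN were listed at 0 in all of them, and FABP4 lay between 0.128 and 1.01 FPKM.

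Transcription factors of adipogenesis did not rise in the test. CEBPA, the gene of C/EBP-alpha, read 9.71, 8.37 and 10.0 FPKM on day 2 and 7.27, 2.86 and 1.92 on day 4 (-1.19, SE 0.23, adjusted p = 0.00129). It was the only call of 20 tested factors, lower on day 4 with non-overlapping libraries, and it was lost with the 12 BF libraries. PPARG, the gene of PPAR-gamma, was low throughout, at 1.27, 1.27 and 5.75 FPKM and then 2.17, 0.919 and 1.64 (-0.37, SE 0.29, adjusted p = 0.39). The sign rested on BF-2d replicate 3, without which the difference was 0.15. CEBPB stood at 27.8 to 51.2 FPKM on day 2 and 30.9 to 52.1 on day 4 (-0.01, SE 0.25, and -0.24 or -0.23 without the third replicate of day 2 or day 4).

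Enzymes of fatty acid and triglyceride synthesis divided between the directions. Of 20 tested, ACSL4, which activates arachidonic acid, rose from 131, 83.7 and 63.2 FPKM to 182, 294 and 531 (1.78, SE 0.29, adjusted p = 0.000275), and FADS2, a desaturase, fell from 44.4, 42.3 and 48.2 to 19.0, 19.1 and 23.8 (-1.09, SE 0.19, adjusted p = 0.00046). FASN, fatty acid synthase, read 101, 81.8 and 93.0 FPKM and then 43.4, 49.4 and 51.7, a difference of -0.92 that passed the p but not the fold limit (SE 0.12, adjusted p = 4.41e-05). SCD, stearoyl-CoA desaturase, was at 0.15 (SE 0.22), and at -0.24 without BF-4d replicate 3. PCK1, an enzyme of glyceroneogenesis and a candidate gene, read 611, 461 and 24.5 FPKM and then 245, 217 and 54.7 (-0.42, SE 0.78, adjusted p = 0.752), so that the days overlapped through BF-2d replicate 3, and in the fit without that library PCK1 was called lower (-1.88, adjusted p = 0.00814). Without BF-4d replicate 3 it was at 0.26. GK, glycerol kinase, another candidate, was not called (0.51, SE 0.40, adjusted p = 0.394), with 0.05 without BF-2d replicate 3 and 1.10 without BF-4d replicate 3.

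AGT (angiotensinogen, chr14:59643030-59656835, plus strand), from which angiotensin is cut and which adipose tissue secretes, was the candidate gene with the smallest adjusted p. It read 3.78, 3.56 and 2.31 FPKM on day 2 and 14.1, 30.2 and 32.4 FPKM on day 4 (2.59, SE 0.21, adjusted p = 2.06e-07). The libraries were wide apart, and the call held in every fit without one library and with the 12 BF libraries. CYP26B1, which degrades retinoic acid, rose from 7.78, 5.38 and 2.88 FPKM to 25.9, 29.5 and 50.5 (2.53, SE 0.23, adjusted p = 8.12e-07). DHRS3, a retinal reductase that lowers retinoic acid supply, fell from 28.8, 45.6 and 34.9 FPKM to 9.32, 2.87 and 2.18 (-2.87, SE 0.30, adjusted p = 4.79e-06). CRABP2, a retinoic acid carrier, fell by 1.61 on the log2 scale, although its libraries overlapped. Of the 15 tested members of the angiotensin and retinoid list 3 rose and 2 fell. RARRES1, a retinoid-responsive gene, rose by 1.90.

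The inducers and their usual targets were examined because IBMX and dexamethasone left the medium at day 2. Of 20 tested cAMP-response genes limma called 0, with 5 at an unadjusted p under 0.05, a lower share than over all genes. The median was 0.16, but its sign turned without BF-2d replicate 3, to -0.34. That library had a mean log2(FPKM + 1) of 3.16 over the list, against 4.38 and 4.09 in the other BF-2d libraries and 3.84 to 4.12 on day 4. DUSP1, a phosphatase gene induced by both inducers, was at -0.37 (SE 0.22, adjusted p = 0.24), and at -0.76 without it (adjusted p = 0.0023), below the fold limit. NR4A1, a nuclear receptor induced by cAMP, stood at 67.2, 69.7 and 15.9 FPKM on day 2 and 72.4, 54.4 and 25.7 on day 4 (0.14, and -0.54 without BF-2d replicate 3 or 0.56 without BF-4d replicate 3). Of 13 glucocorticoid-response genes only KLF9 was called, and it rose, from 12.9, 6.71 and 6.12 FPKM to 17.0, 27.7 and 23.2 (1.34, SE 0.23, adjusted p = 0.000467). FKBP5, another target of the receptor, was at 0.66 (SE 0.27, adjusted p = 0.0822). The glucocorticoid list had a median of 0.28, and of 0.07 without BF-2d replicate 3. Since 1.34% of all genes were called lower, lists of this size without a lower call say little about the withdrawal of the inducers. Among 16 genes of insulin signalling and glucose uptake limma called 0, with 6 at an unadjusted p under 0.05.

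Cell cycle control moved in a few genes. CDKN2B, which encodes the inhibitor p15, rose from 5.80, 4.11 and 3.43 FPKM to 21.9, 47.4 and 23.3 (2.48, SE 0.24, adjusted p = 1.4e-06), CDKN1C, which encodes p57, fell from 10.7, 10.5 and 4.32 to 1.81, 1.72 and 3.29 (-1.48, SE 0.25, adjusted p = 0.000433), and PLK2, a p53 target, rose by 1.47. These were 3 of 13 tested inhibitors and p53 targets. Of 26 genes of cell division and replication, CDC20, an activator of the anaphase complex, fell by 1.23 on the log2 scale and 23 were below 0, with a median of -0.32. BF-4d replicate 3 had a mean log2(FPKM + 1) of 1.56 over this list against 2.46 and 2.30 in the other day 4 libraries. Without it the median was -0.13 and CDC20 was at -0.73, not called, and CDC20 also lost its call without BF-2d replicate 3 (adjusted p = 0.015). In glycolysis and the hypoxia response, VEGFA, the endothelial growth factor, rose from 171, 160 and 44.1 FPKM to 349, 420 and 914 (2.25, SE 0.35), and EGLN3, an oxygen sensor, by 2.47 (SE 0.33). They were the only calls among 24 members, whose median was 0.33, and 0.06 without BF-2d replicate 3.

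Other lists held few calls. In the IGF system 2 of 11 rose, the binding protein IGFBP5 (1.97, SE 0.50) and the calcium-regulating hormone STC1 (2.74, SE 0.70), and IGFBP6 fell by 1.34 on the log2 scale. IGFBP5 was called in 2 of the 6 fits without one library and not with the 12 BF libraries (adjusted p = 0.0732). Without BF-2d replicate 3 it changed by 0.91 and lost its call, and STC1 by 1.37. Of 14 YAP/TAZ targets 1 rose, F3, the tissue factor that starts clotting (1.77, SE 0.29). Of 11 complement genes, CLU (clusterin) fell from 738, 949 and 1019 FPKM to 377, 408 and 202 (-1.50, SE 0.19). NDUFV1, a subunit of complex I, was the one call of 26 genes of oxidative phosphorylation and the citrate cycle (from 36.5, 49.9 and 46.5 FPKM to 23.7, 22.5 and 18.5, adjusted p = 4.08e-05), a list with a median of -0.31. Limma called 0 of 16 genes of the unfolded protein response (6 at an unadjusted p under 0.05, near the share over all genes), 0 of 20 interferon-stimulated genes (1 such, with a median of -0.69) and 0 of 20 cytosolic ribosomal proteins (13 such, with all 20 differences below 0 and a median of -0.41). For the ribosomal list BF-4d replicate 3 had a mean log2(FPKM + 1) of 8.68 against 9.34 and 9.36 in the other day 4 libraries, and without it the median was -0.21. The median of the unfolded protein list was 0.36, and its sign turned without BF-4d replicate 3, to -0.15.

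Without BF-2d replicate 3 the calls lost among the lists, beside those already given, were HBEGF, NRG1, BGN, OGN, OMD, IL11RA, CRABP2 and NDUFV1. OMD then changed by -0.89, CRABP2 by -0.95, TPM1 by -0.90, TPM2 by -0.81, PLAUR by 1.08 and CNN1, still called, by -1.13. The median of the chemokine and cytokine list was 0.69, and 0.37 without that library. With the 12 BF libraries the calls lost, beside those already given, were ACSL4, FADS2, IL33, IL11RA, KLF9, F3, CDKN1C, PLK2, VEGFA, CRABP2, RARRES1, CDC20, STC1, ECM2, OGN and OMD, with adjusted p of 0.0118 to 0.0658.

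The same groups were read without BF-4d replicate 3, the library that was highest for MMP1, PTGS2 and CXCL8. MMP1 then changed by 4.31 and PTGS2 by 2.68, and MMP13 by 1.60 in place of 3.30, all still called. PKIB, at 2.76, changed by 1.79. The medians became 0.30 for the metalloproteinases, 0.10 for the prostaglandin genes, 0.59 for the EGF family and 0.73 for the antioxidant genes. On the falling side they became -0.99 for the contractile genes, -0.44 for the proteoglycans and -1.08 for the cholesterol genes, so that the contractile list was again not the lowest. The medians of the metalloproteinase and prostaglandin lists thus came down by more than 1.5 times, and the others of these 7 moved less. Among the other lists the medians of the chemokines and cytokines (0.15) and the IGF system (0.32, from 0.68) came down and that of the interferon-stimulated genes went to -1.09. The calls lost in these groups were PLAUR, PLA2G4A, NRG1, SRXN1, TPM1, OGN and OMD. Of the smaller groups TGFB1, GDF15, IL11RA, IGFBP5, STC1, LPL, CEBPA, CRABP2, CDC20 and NDUFV1 lost theirs, LPL and IGFBP5 with differences no smaller than before (2.67, adjusted p = 0.0103, and 2.17, adjusted p = 0.0143). The differences of NRG1 (0.68), GDF15 (1.37) and IL11RA (-0.68) came down by more than 1.5 times, as did that of CDC20.

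The labelled cell type was checked against markers. Stromal preadipocyte markers were abundant, with summed levels of 4425 to 8684 FPKM on day 2 and 2751 to 4253 on day 4. Of its 14 tested members 4 fell (PI16, CD248, COL1A1 and MFAP5), and PDGFRA, the receptor that defines these progenitors, stood at 182 to 433 FPKM on day 2 and 325 to 366 on day 4. Muscle markers summed to 0.696 to 3.88 FPKM and then 0.286 to 0.586, with MYOD1, MYF5, MYF6 and MYH8 listed at 0 in all 6 libraries. Endothelial markers summed to 1.46 to 2.47 FPKM and then 1.33 to 2.04. Immune markers summed to 3.24 to 5.31 FPKM and then 3.19 to 19.0, the highest being BF-4d replicate 3, where the monocyte marker CD14 was at 17.1 FPKM while PTPRC, the pan-leukocyte marker, was at 0. Pericyte and smooth muscle markers summed to 230 to 793 FPKM and then 206 to 313, with ACTA2 lower and RGS5 higher. Their part in the changes was not tested.

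On the other days the genes took different courses, given here as a description because successive comparisons share libraries.

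**Figure D3:**
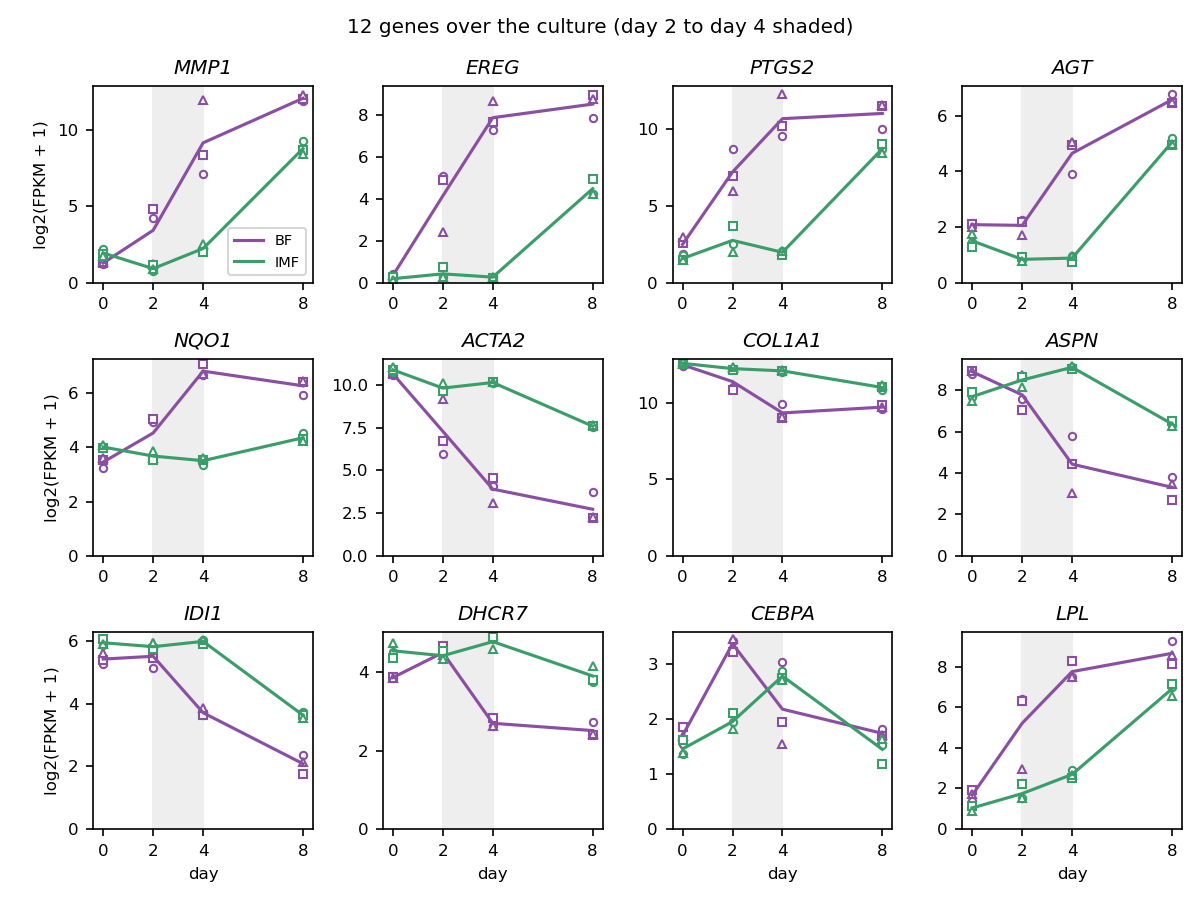
Values of log2(FPKM + 1) by day for 12 genes in BF (purple) and IMF cells (green), with replicates 1, 2 and 3 as circles, squares and triangles, lines through the group means, and days 2 to 4 shaded. DHCR7 and CEBPA of BF cells peak on day 2, ACTA2 and ASPN of BF cells fall from day 0, and MMP1, EREG and AGT of IMF cells stay low until day 4 and are high on day 8.

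ACTA2 averaged 1600 ± 45.8 FPKM on day 0 in BF cells (SD, n = 3), 251 ± 293 on day 2, 15.3 ± 7.42 on day 4 and 6.49 ± 4.82 on day 8, so that its decline began before the interval. DHCR7 followed another order, at 13.5 ± 0.166, 21.6 ± 2.40, 5.48 ± 0.504 and 4.72 ± 0.736 FPKM, with day 2 as its highest day. AGT averaged 3.24 ± 0.224, 3.22 ± 0.795, 25.6 ± 9.98 and 94.7 ± 11.4 FPKM, and its levels on days 0 and 2 differed by less than their SD. CEBPA averaged 2.26 ± 0.338, 9.37 ± 0.880, 4.02 ± 2.86 and 2.35 ± 0.179 FPKM and was back near its day 0 level on day 8.

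Intramuscular cells over the same 2 days changed little in these genes. Over the 541 called genes the median absolute log2 change was 1.33 in BF cells, where the calls fixed it to be at least 1, and 0.19 in IMF cells, and 5 of them reached 1 in IMF cells. Over all tested genes the medians were 0.216 and 0.0960. Absolute changes also grow with the spread of replicates. The median SD was 0.218 in BF-2d and 0.158 in BF-4d, against 0.0918 in IMF-2d and 0.0888 in IMF-4d. The difference between the depots was tested as an interaction, the change in BF minus the change in IMF, which was called for 493 of 16135 genes (3.06%), and for 310 of the 541 (167 of those higher and 143 of those lower). The 541 were chosen for a large BF change that is itself part of the interaction, so a high share among them is built in and nothing is read from it.

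**Figure D4:**
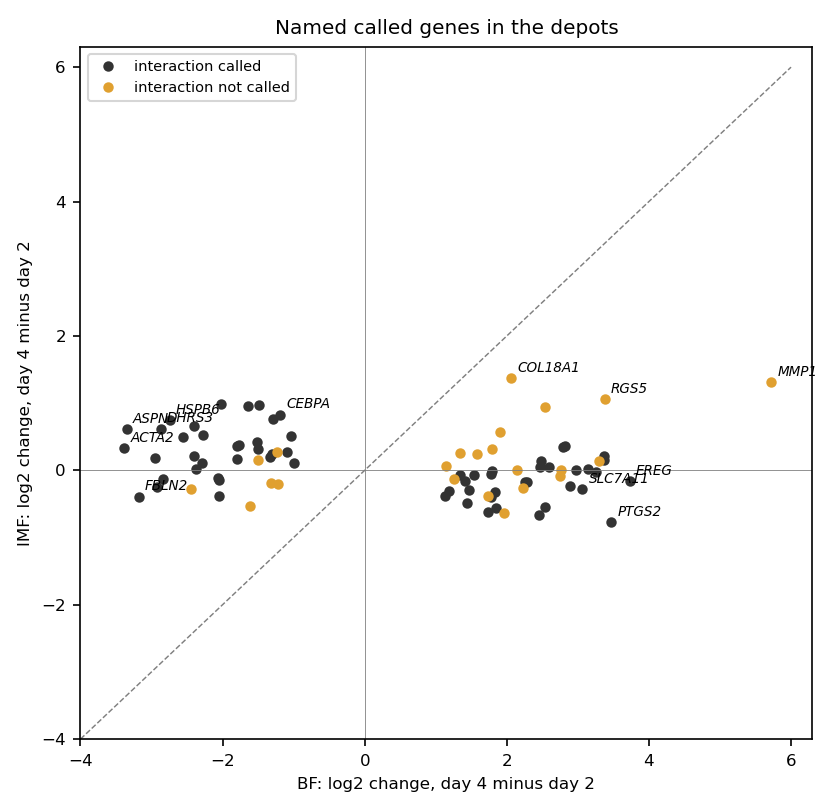
The log2 change from day 2 to day 4 in BF cells (horizontal) against that in IMF cells (vertical) for the 86 named genes called in BF cells (black, interaction called; yellow, interaction not called; dashed line, equal change). The points spread along the horizontal axis, from ACTA2 at -3.38 to MMP1 at 5.72, and hold close to 0 on the vertical one, where MMP1 (1.31), COL18A1 (1.37) and RGS5 (1.06) are the highest.

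The median of the cholesterol genes had opposite signs in the depots. It was 0.29 in IMF cells. DHCR7 stood at 20.4 ± 1.67 FPKM in IMF-2d and 26.5 ± 2.86 in IMF-4d (SD, n = 3), and the interaction was -2.16 (adjusted p = 3.86e-06). For the contractile list the IMF median was 0.22. ACTA2 was at 906 ± 158 and 1126 ± 19.9 FPKM in IMF cells. Of the antioxidant genes SLC7A11 was at 9.85 ± 0.677 and 7.99 ± 1.28 FPKM in IMF-2d and IMF-4d. CEBPA, lower in BF cells, averaged 2.89 ± 0.391 and 5.89 ± 0.416 FPKM in IMF cells (interaction -2.02, adjusted p = 0.000946). MMP1 was the largest change with no called interaction (4.40, adjusted p = 0.0228), and LPL (adjusted p = 0.208) and RGS5 had none either. With only the 12 libraries of this comparison fitted, 33 interactions were called.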

How the data were processed

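Polyadenylated RNA of 24 libraries (2 depots, 4 days, 3 replicates) was sequenced by the authors as paired reads on a NovaSeq, aligned with HISAT2 to Sscrofa11.1 and quantified with StringTie (version 1.3.4d per the submitters' notes) against Ensembl. The deposited values were FPKM per gene, scaled by the authors for transcript length and mapped fragments. They keep no counts, so the reads behind each value are unknown and DESeq2, which the authors used, could not be run. The paper gives the total of clean data, mapping ratios and sequencing statistics, which were not used here. Groups were taken from the labels.

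Genes whose FPKM summed over 24 libraries exceeded 1 were tested (16135 of 25462). Values were fitted as log2(FPKM + 1), pseudocount 1, with limma 3.58.1 in R 4.3.3 (1 mean per group, all 24 libraries, eBayes with trend and robust), contrast BF-4d minus BF-2d. Calls needed a Benjamini-Hochberg adjusted p under 0.01 and an absolute log2 change of at least 1. The script was tested on simulated data with the same spread of a gene in every group, which cannot show what the unequal spread of these groups does. Alternatives were pseudocounts of 0.1 and 5, filters, scalings, library weights, fewer libraries, a replicate block and leaving out each library. The members and the 28 pathway and 6 marker lists were chosen with earlier results of these data known.

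Named genes were the 15 largest rises and falls (called genes with a symbol, a group mean of 1 FPKM or more, and no overlap of libraries), up to 5 called and 3 other members per list, the 5 largest interactions each way, and the candidates of the study. A few other list members are named after their values were seen. Symbols were matched by Ensembl ID for 14815 genes, and GK is the gene the study names so. Upstream windows were read from the RefSeq genome of the same build. They end at the gene start, since no promoter table was used. Differences that limma tested are later minus earlier. A few members of the cholesterol list, and some upstream windows, are counted where lists are counted but not reported here.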

Additional observations from a re-analysis of the deposited data

Results flagged for a closer look

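The change from day 2 to day 4 differed between subcutaneous and intramuscular cells by the interaction test of limma for 493 genes, 209 with a BF change above and 284 below that of IMF. Among the largest rises in BF cells, the change exceeded that in IMF cells, on the log2 scale, by 4.24 for PTGS2, 3.89 for EREG, 3.34 for SLC7A11, 3.28 for PCSK1, 3.21 for HGF, 3.16 for TRPA1, 3.12 for WNT5A and for LVRN, 2.98 for CBLN4, 2.47 for RESF1 and 2.44 for CHI3L1. Among the largest falls, the difference was -3.96 for ASPN, -3.71 for ACTA2, -3.49 for HSPB6 and for DHRS3, -3.12 for SFRP4, -3.07 for ACTG2 and for TAGLN, -2.80 for MFAP5, -2.79 for FBLN2, -2.70 for MFAP4, -2.67 for ELN, -2.62 for MYL9, -2.40 for ITGBL1 and -2.39 for CCDC80. These were 11 of the 15 largest rises and 14 of the 15 largest falls, against 3.06% called over all tested genes. The genes were chosen for a large BF change, which is itself part of the interaction, so these high shares are built in and nothing is read from them.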

How the results depend on the processing

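The 541 calls (324 higher, 217 lower) became 970 (602 and 368) at a pseudocount of 0.1, 243 (147 and 96) at 5, and 172 (85 and 87) with the 12 BF libraries. With only the 6 libraries compared limma called 0, with or without the replicate block (2640 and 2981 genes at an unadjusted p under 0.05). Without one library the count ran from 405 to 851, 253 to 532 higher and 152 to 319 lower, the highest without BF-2d replicate 1 and the lowest without BF-2d replicate 3. Other filters, scalings and library weights gave 395 to 566. The 493 interactions became 241 at a pseudocount of 5, 33 with only the libraries compared and 0 with those and the replicate block (3488 at an unadjusted p under 0.05). Without one library they ran from 270 to 879, with 879 without BF-2d replicate 1, 317 without IMF-2d replicate 2, and 301 and 270 without IMF-4d replicates 1 and 2. The cause was not tested. Of 86 named called genes 0 changed direction under any alternative, and 57 kept their call under each one except those on 6 or 12 libraries. Deviations of same-numbered BF-2d and BF-4d libraries correlated at 0.018, -0.046 and 0.019, and BF-2d replicate 1 correlated best with BF-4d replicate 2 (0.163). These are deviations from means of 3 libraries, so they cannot show whether the same number stands for the same animal. The replicate block over all 24 libraries gave 522 calls and 388 interactions. FPKM keep no read counts, so no counting error can be given.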
